A study of Mus musculus with 18 samples.

Results

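The genes of glycolysis and of the transcriptional response to low oxygen were followed in the mouse macrophage line J774 over an exposure of 24 h to talc or titanium dioxide particles, with or without estradiol. A list of 34 genes was taken, and 33 of them were measured among 23102 genes in all; the aldolase gene Aldoa was not analysed here. The list covers transporters of glucose and lactate, the enzymes between glucose and lactate, the kinases that close pyruvate off from the mitochondria, HIF1A with the proteins that control its stability, and further known targets of HIF1A. Each gene was read as the average, on the log2 scale, of its probe sets (the array's smallest measured units, most of them within 1 exon). The listed genes rested on 469 probe sets, 3 to 28 per gene with a median of 14.

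All cells were grown in medium with serum and without phenol red, the labels give no oxygen level, and the cells were kept in 24 well plates during exposure. Vehicle-treated cells received neither particles nor hormone, and estradiol-treated cells received 2 µg/mL of 17-β estradiol. Talc and titanium dioxide (TiO2) were each given at 10 µg per well, either alone or together with estradiol at that dose. Each of these 6 treatments (vehicle, estradiol, and either particle with and without estradiol) has 3 arrays. Talc is a magnesium silicate mineral and TiO2 a metal oxide, used here as the other particle of the design. The design compares each particle with its control, with and without estradiol. J774 is a single transformed line, and no label states that replicate arrays stem from separate cultures, so each p-value reflects just the scatter of these arrays, which may be technical.

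Glycolysis splits glucose into pyruvate in the cytosol, and pyruvate then becomes lactate or enters the mitochondria. When oxygen is scarce, the prolyl hydroxylases encoded by the Egln genes no longer mark HIF1A for the ubiquitin ligase that contains VHL, and HIF1A pairs with ARNT at DNA sites with the core CGTG preceded by A or G to raise genes of glucose uptake, glycolysis and adaptation. In macrophages the same set of genes is also known to rise during inflammatory activation at normal oxygen, when the cells turn to glycolysis. HIF1A is set largely through protein stability, which an array of RNA does not measure.

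Promoter sequences that hold the core motif are shown for genes that passed the test for talc and for chosen textbook HIF1A targets that did not pass it. The motif ACGTG was searched on both strands in the 250 bases before each RefSeq start site, build GRCm38.p6; CACGTG reads the same on both strands and counts on each. Stretches of 60 bases are shown on the gene's own strand, with the motif in capitals. For each gene the first window with the motif was taken, so its presence in every stretch shown was set by the choice. Pfkm and Ldha also have windows without it. The first 5 genes changed with talc, the first 4 of them upward and Pfkm downward:
Slc2a1, chr4:119108684-119108743, plus strand: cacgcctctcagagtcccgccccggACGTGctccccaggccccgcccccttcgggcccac
Slc16a1, chr3:104638440-104638499, plus strand: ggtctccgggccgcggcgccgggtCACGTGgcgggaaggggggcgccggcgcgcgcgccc
Hk2, chr6:82774472-82774531, minus strand: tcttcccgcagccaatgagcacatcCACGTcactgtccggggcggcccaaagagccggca
Pgam1, chr19:41911732-41911791, plus strand: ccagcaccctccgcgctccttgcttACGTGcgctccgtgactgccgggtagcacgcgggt
Pfkm, chr15:98092429-98092488, plus strand: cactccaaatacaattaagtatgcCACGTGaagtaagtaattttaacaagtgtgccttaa
The other 4 genes did not pass the test for talc:
Ldha, chr7:46845744-46845803, plus strand: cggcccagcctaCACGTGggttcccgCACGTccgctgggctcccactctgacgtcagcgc
Pgk1, chrX:106186944-106187003, plus strand: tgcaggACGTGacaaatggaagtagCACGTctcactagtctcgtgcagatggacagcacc
Bnip3, chr7:138909579-138909638, minus strand: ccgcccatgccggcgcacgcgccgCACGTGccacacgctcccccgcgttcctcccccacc
Ankrd37, chr8:45999851-45999910, minus strand: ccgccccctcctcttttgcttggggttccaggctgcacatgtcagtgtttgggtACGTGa

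Of the 34 listed genes 32 had a RefSeq promoter, with 47 windows between them. ACGTG stood in 25 of the 47 windows (53.2%), and in 16.6% of all 32851 windows of the same length. The other form of the core, GCGTG, stood in 46.8% of the listed genes' windows and in 28.2% of all. The listed promoters held a median of 17 CpG sites and 62.8% G and C, against 6 and 52.4% over all windows, so their base composition differed as well. Among windows with at least 17 CpG sites, ACGTG stood in 18 of 24 (75%) of the listed genes' windows and in 25.5% of all 7728. GCGTG was not more frequent in the listed genes there, with 50% of their windows against 59.1% of all. The list was chosen to include known targets of HIF1A, so a higher share of its core motif is not an independent result. The motif stood in genes that moved with talc and in genes that did not pass: 4 of the 5 genes that rose and 15 of 25 genes (60%) without a call held ACGTG. The enolase gene Eno2, which rose, had no match in its window, and these letters alone do not show binding.

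Array medians lay between 45.6 and 48 intensity units, and arrays of a group correlated at 0.94 to 0.959 across probe sets. All 9 measured macrophage markers stood above the median level of all genes, against 2 of 8 fibroblast, 2 of 6 epithelial, 0 of 6 lymphocyte and 0 of 6 granulocyte markers; probe sets differ in brightness at equal RNA, so this is a coarse check of the label. With talc the macrophage markers Itgam (-0.47) and Adgre1 (-0.49) fell on the log2 scale with the estradiol arms averaged. They were the only calls among the 9 markers (22.2%, against 14.8% of all genes and 27.7% of genes above the median level), and 3 of the 9 lay above 0. The summed intensity of the 9 markers was 15410 to 15990 in vehicle-treated and 15020 to 15460 in talc-treated arrays, and 15760 to 16140 with estradiol against 15360 to 16130 with talc plus estradiol. The part of this in the results below was not tested, and in RNA from whole wells fewer cells of a type and less RNA per cell cannot be told apart. Array numbers in the labels run through the groups in order, and order and group cannot be told apart. Replicate numbers were given here in accession order within a group. The array numbered 3 was the lowest of its group in at least 5 of the 6 groups for 6 of the 33 genes (Slc2a1, Hk2, Eno2, Ldha, Bnip3 and Ankrd37), the one numbered 1 for 2 genes and the one numbered 2 for 1 gene. This count was made for the listed genes only, so no share of all genes stands beside it. The labels do not say whether arrays with the same number share anything, and the part of this pattern in the results was not tested. Of the 33 measured genes 32 stood above the median level of all genes; the exception was Egln3. Their median SD within groups was 0.13 log2 units, against 0.19 over all genes.

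**Figure D1:**
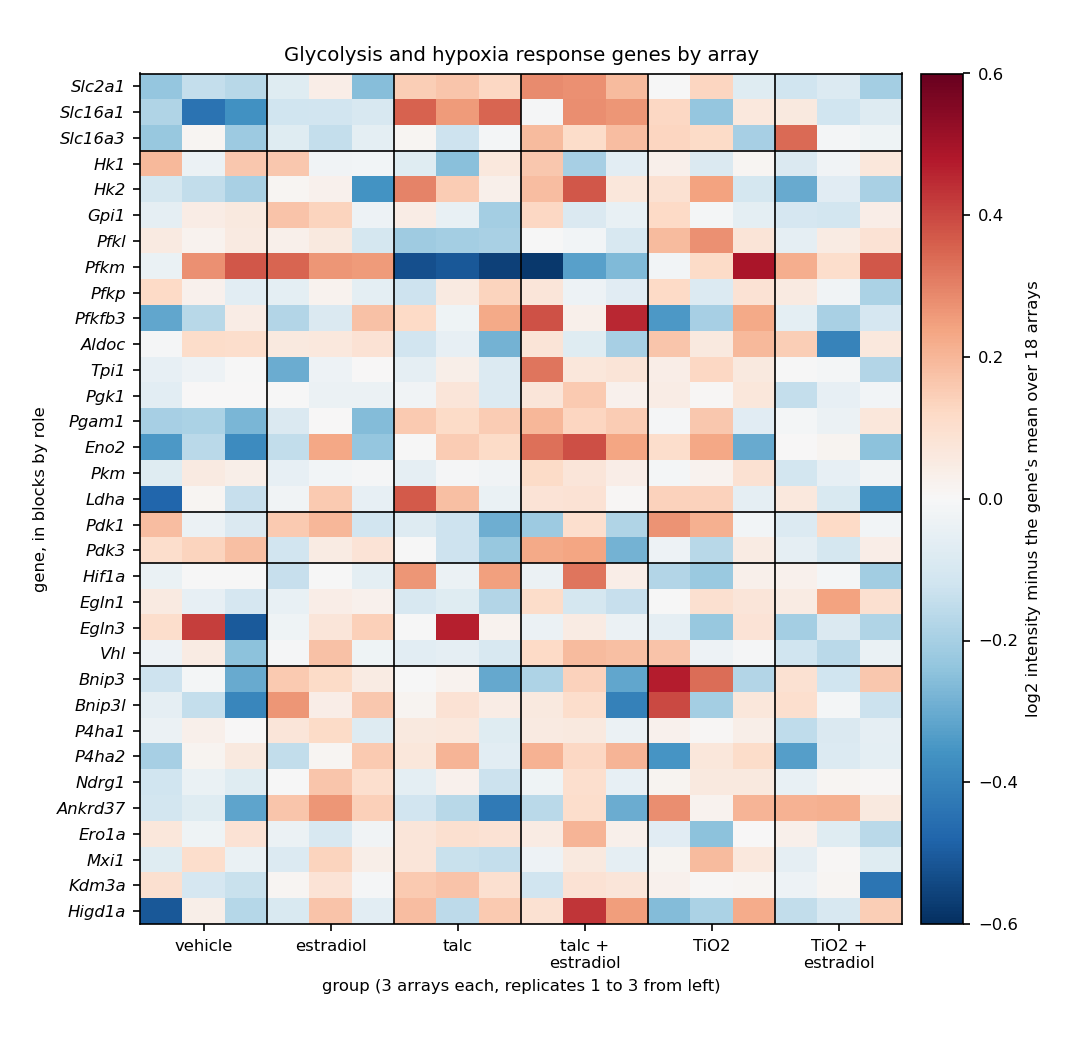
Heat map of the 33 measured genes (rows, in blocks by role) in 18 arrays (columns, 3 per group). Colour is the log2 intensity minus the gene's mean over all arrays. The row of Pfkm is low in all 6 talc-treated arrays, and those of Slc2a1 and Pgam1 are low in vehicle-treated arrays, while most other rows show no block that follows a group.

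Averaged over the arms with and without estradiol, 5 genes rose by 1.24-fold to 1.39-fold: the glucose transporter Slc2a1, the lactate and pyruvate transporter Slc16a1, hexokinase Hk2, phosphoglycerate mutase Pgam1 and enolase Eno2. The phosphofructokinase Pfkm fell by 1.63-fold. Hif1a, its regulators and the other listed HIF1A targets, 14 genes in all, gave 0 calls, and the difference between these groups of genes was not tested. The 5 higher and 1 lower calls made up 18.2% of the 33 genes, and 7.92% of all genes were called higher and 6.87% lower in limma (adjusted p under 0.05, Benjamini-Hochberg, all genes of a comparison), 14.8% together. Among genes above the median level, where nearly all listed genes stood, 14.9% were called higher and 12.8% lower, 27.7% together. The share called of the listed genes, 18.2%, thus lies between 14.8% and 27.7%. Their median log2 change was 0.04, against 0.01 over all genes.

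Without estradiol, 3 of the listed genes rose with talc, where 3.94% of all genes were higher, and 1 fell, where 4.52% were lower. Among genes above the median level 7.16% were higher and 8.64% lower. The calls made up 12.1% of the listed genes, against 15.8% of genes above the median level. The listed genes that rose were Slc16a1, Pgam1 and Slc2a1, and the one that fell was Pfkm. In the presence of estradiol, talc raised 1 gene, Slc2a1, where 4.13% of all genes were higher, and lowered 1, Pfkm, where 3% were lower. Among genes above the median level 7.79% were higher and 5.47% lower there. These calls made up 6.06% of the listed genes, against 13.3% of genes above the median level. Whether talc acted differently in the arms was tested as an interaction of talc with estradiol. It passed for 0 of 33 listed genes and 0% of all genes in limma, with 2 listed genes and 6.32% of all genes at an unadjusted p under 0.05. Averaging the arms gives smaller errors than either arm alone and uses the arrays of both.

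**Figure D2:**
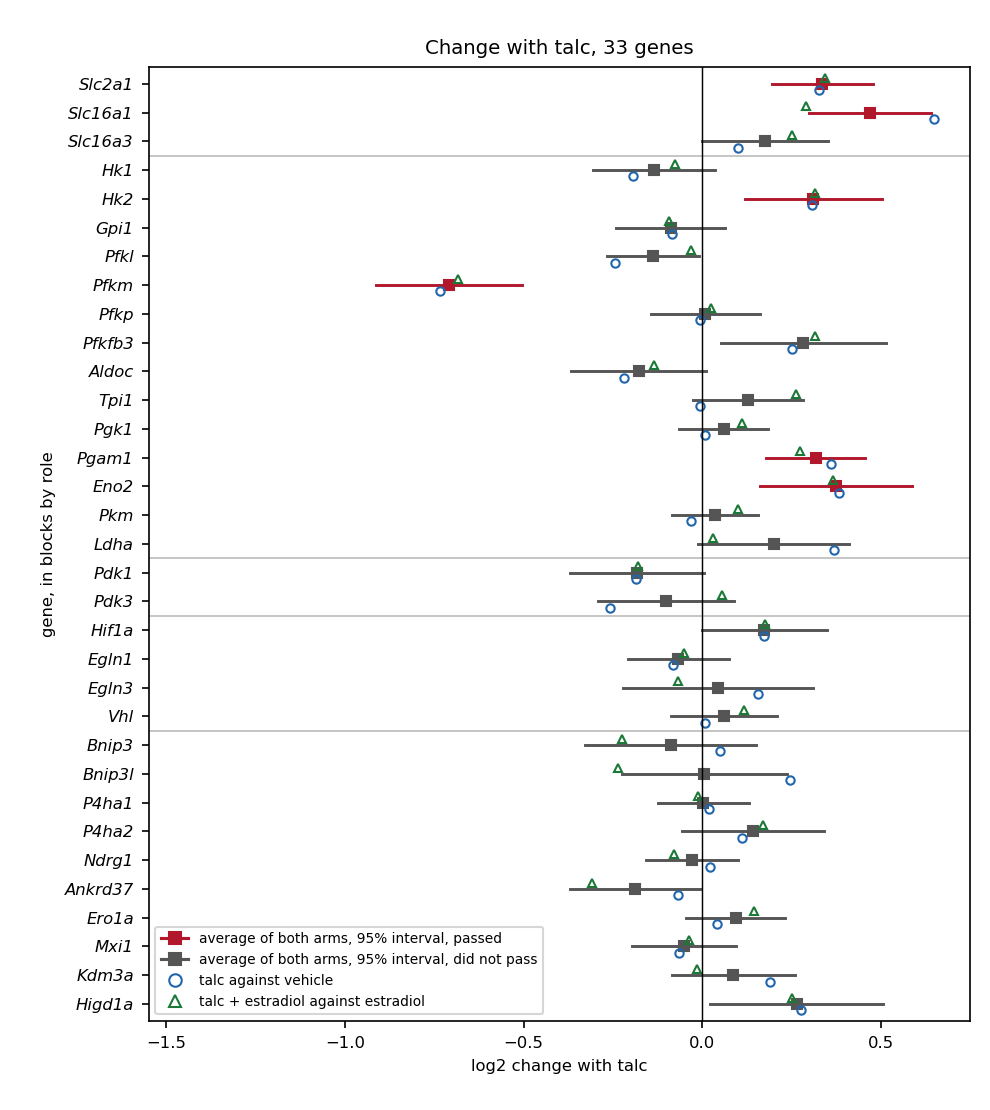
Log2 change with talc of each measured gene (rows, in blocks by role). Squares are the average of both arms with the 95% interval, red where the gene passed; circles are talc against vehicle and triangles talc plus estradiol against estradiol. Pfkm lies alone at -0.71, 5 red squares lie between 0.31 and 0.47, and the others lie between -0.19 and 0.28.

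The transporters bring glucose into the cell and carry lactate across the membrane. Slc2a1, which encodes the glucose transporter GLUT1, had log2 intensities of 10.66, 10.75 and 10.73 in vehicle-treated cells and 11.04, 11.06 and 11.02 with talc. With estradiol alone they were 10.82, 10.93 and 10.64, and with talc plus estradiol 11.18, 11.17 and 11.08. All 6 talc-treated arrays stood above all 6 arrays without particles. The log2 change was 0.34 ± 0.07 with the arms averaged (SE, adjusted p = 0.0018), 0.33 ± 0.09 without estradiol (adjusted p = 0.038) and 0.34 ± 0.09 with it (adjusted p = 0.034). The call without estradiol was lost on leaving out any 1 of the vehicle and talc arrays (6 in all), with changes between 0.30 and 0.35 and adjusted p between 0.079 and 0.12. Over all 16 alternative ways of processing, arrays left out included, it passed in 7 (adjusted p up to 0.21). The call with estradiol was lost without estradiol replicate 1 or 3 or any 1 of the talc plus estradiol arrays, with changes between 0.27 and 0.37. It passed in 8 of all 16 alternatives, with changes down to 0.23 and adjusted p up to 0.39. The averaged call held without any single array and was lost with the median of its probe sets (0.27, adjusted p = 0.066).

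Slc16a1 encodes MCT1, which moves lactate and pyruvate together with protons. Its log2 intensities were 8.43, 8.17 and 8.25 with vehicle and 8.97, 8.87 and 8.96 with talc. They were 8.50, 8.50 and 8.52 with estradiol and 8.61, 8.90 and 8.88 with talc plus estradiol. Here too the groups did not overlap in either arm. Its change of 0.47 ± 0.08 (adjusted p = 0.00055) was the highest among the listed genes, and 0.65 ± 0.11 (adjusted p = 0.0014) without estradiol. With estradiol it was 0.29 ± 0.11 and did not pass (adjusted p = 0.16). The difference between the arms, -0.36 ± 0.16, did not pass either (adjusted p = 0.77). Slc16a3, which encodes the lactate exporter MCT4, changed by 0.18 ± 0.08 (adjusted p = 0.2), with the upper end of its 95% interval at 0.35.

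Hexokinase traps glucose as glucose 6-phosphate. Hk2, its inducible form, read 8.84, 8.80 and 8.75 with vehicle, 9.24, 9.09 and 8.97 with talc, 8.95, 8.97 and 8.59 with estradiol, and 9.13, 9.31 and 9.01 with talc plus estradiol. The lowest talc-treated array, at 8.97, stood just above the highest estradiol array. The averaged change was 0.31 ± 0.09 (adjusted p = 0.027), and neither arm passed alone (adjusted p = 0.18 and 0.17). This call was the least firm of the 6: it was lost, at a change of 0.25 to 0.31 and an adjusted p of 0.05 to 0.075, without any 1 of vehicle replicate 2 or 3, estradiol replicate 3, talc replicate 1 and talc plus estradiol replicate 2, and with the median of its probe sets (0.29, adjusted p = 0.17). Hk1, the constitutive hexokinase, changed by -0.13 ± 0.08 (adjusted p = 0.35), and the next enzyme, Gpi1, by -0.09 ± 0.07 (adjusted p = 0.53).

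Phosphofructokinase commits sugar to glycolysis and is built from muscle, liver and platelet subunits. The muscle subunit Pfkm had log2 intensities of 6.72, 7.04 and 7.14 with vehicle and 6.24, 6.26 and 6.20 with talc. It had 7.12, 7.03 and 7.02 with estradiol and 6.19, 6.44 and 6.50 with talc plus estradiol. The TiO2 arrays read 6.75, 6.88 and 7.25, and those with TiO2 plus estradiol 6.98, 6.87 and 7.14. All 6 talc-treated arrays lay below all 12 others. The log2 change was -0.71 ± 0.10 averaged (adjusted p = 6.3e-05), -0.73 ± 0.14 without estradiol (adjusted p = 0.0023) and -0.68 ± 0.14 with it (adjusted p = 0.0051). With the median of its probe sets in place of their mean, the arms alone gave -0.39 (adjusted p = 0.43) and -0.70 (adjusted p = 0.11), while the average still passed.

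The liver and platelet subunits gave no call for talc against its controls. Pfkl read 9.21, 9.18 and 9.21 with vehicle and 8.95, 8.96 and 8.97 with talc, with no overlap, yet 9.19, 9.22 and 9.06 with estradiol and 9.16, 9.15 and 9.07 with talc plus estradiol. Its change was -0.25 ± 0.09 without estradiol (adjusted p = 0.1), -0.03 ± 0.09 with it and -0.14 ± 0.06 averaged (adjusted p = 0.17). Pfkp changed by 0.01 ± 0.07, with a 95% interval of -0.14 to 0.16. Pfkfb3, which makes the activator fructose 2,6-bisphosphate, had the largest positive change that did not pass, 0.28 ± 0.11 (adjusted p = 0.1), and its talc-treated and control arrays overlapped in both arms.

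**Figure D3:**
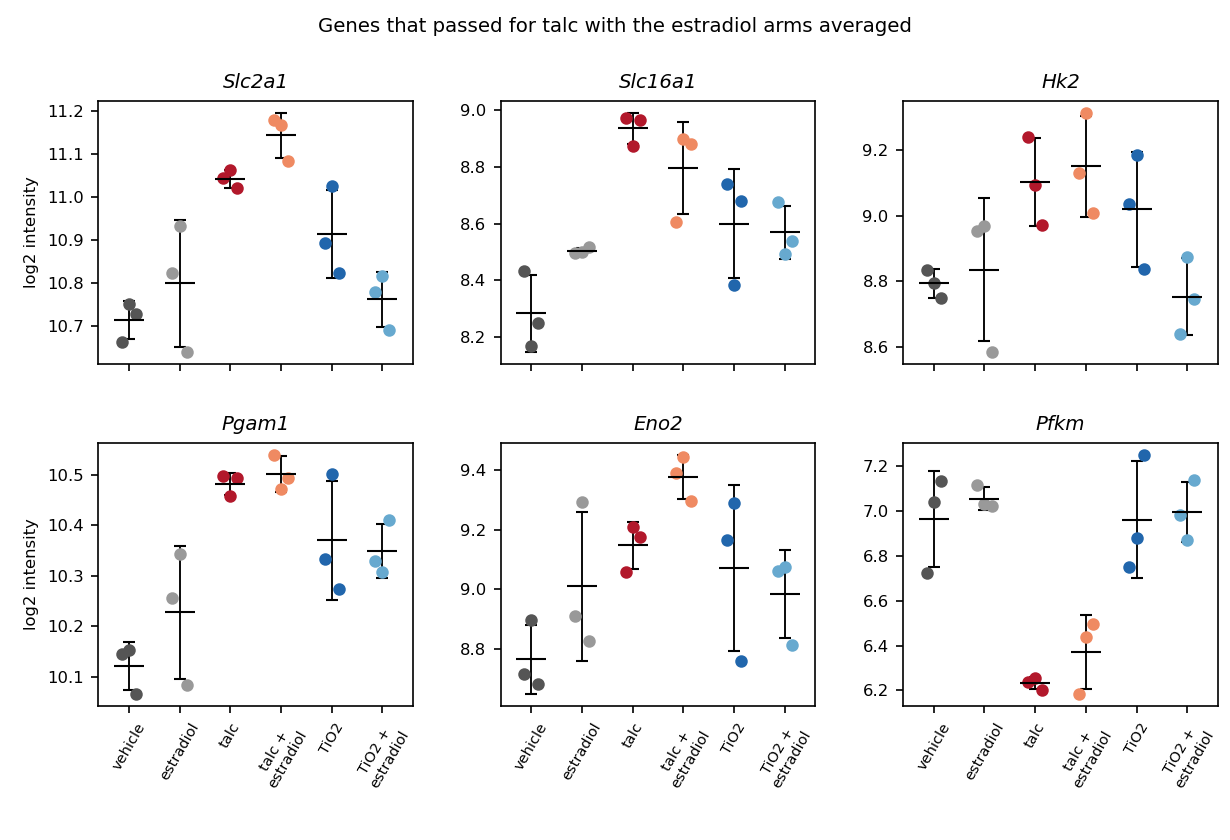
Log2 intensity of the 6 genes that passed for talc with the arms averaged, 1 panel per gene with its own vertical axis. Points are arrays, horizontal bars group means and error bars SD (n = 3). Talc-treated arrays stand above arrays without particles in Slc2a1, Slc16a1, Hk2 and Pgam1 and below all others in Pfkm.

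Of the later enzymes of the pathway, Pgam1 and Eno2, which act one after the other, rose, and the enzymes around them did not pass. Pgam1 converts 3-phosphoglycerate and had log2 intensities of 10.14, 10.15 and 10.07 with vehicle and 10.50, 10.46 and 10.49 with talc. It had 10.26, 10.34 and 10.08 with estradiol and 10.54, 10.47 and 10.49 with talc plus estradiol. The arrays did not overlap, and the change was 0.32 ± 0.07 (adjusted p = 0.0026), 0.36 ± 0.09 without estradiol (adjusted p = 0.021) and 0.27 ± 0.09 with it (adjusted p = 0.09). Pgam1 rests on 3 probe sets, whose changes were 0.12, 0.36 and 0.47, and the brightest of them gave the lowest (adjusted p = 0.6 when tested on its own). With that probe set standing for the gene, the averaged call was lost (adjusted p = 0.4). The call without estradiol was lost without vehicle replicate 2 or 3 or talc replicate 1 or 3, with changes between 0.33 and 0.38. Over all 16 alternatives it passed in 9, with changes down to 0.17 and adjusted p up to 0.45. Pgam1 has near-identical pseudogene copies, and whether its probes also bind them was not tested.

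Eno2 encodes gamma-enolase, better known from neurons. It read 8.72, 8.90 and 8.68 with vehicle and 9.06, 9.21 and 9.17 with talc, then 8.91, 9.29 and 8.83 with estradiol and 9.39, 9.44 and 9.30 with talc plus estradiol. Arrays did not overlap within an arm, although the highest estradiol array stood above all 3 talc arrays. The change was 0.37 ± 0.10 (adjusted p = 0.017), and neither arm passed alone (adjusted p = 0.12 and 0.15). The enolase gene Eno1 was not analysed here.

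The other enzymes of the pathway did not pass, some of them with narrow intervals. Pkm, the pyruvate kinase, changed by 0.03 with a 95% interval of -0.09 to 0.15, and phosphoglycerate kinase Pgk1 by 0.06 with an interval of -0.06 to 0.18. Triose phosphate isomerase Tpi1 had 0.13 ± 0.07 (adjusted p = 0.31), and the aldolase Aldoc -0.18 ± 0.09 (adjusted p = 0.24). Lactate dehydrogenase Ldha, a classical HIF1A target whose promoter holds the motif more than once, ranged from 7.34 to 7.83 with vehicle and from 7.78 to 8.19 with talc, and the groups overlapped. Its averaged change was 0.20 ± 0.10 (adjusted p = 0.23), with 0.37 without estradiol and 0.03 with it. The kinases Pdk1 and Pdk3, which shut off pyruvate dehydrogenase, had -0.18 ± 0.09 (adjusted p = 0.22) and -0.10 ± 0.09 (adjusted p = 0.58).

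The genes that control HIF1A gave no call. Hif1a itself read 7.34, 7.38 and 7.38 with vehicle and 7.65, 7.34 and 7.62 with talc, 7.24, 7.38 and 7.32 with estradiol and 7.34, 7.70 and 7.42 with talc plus estradiol. Of the 6 talc-treated arrays, 2 thus stayed within the range of the untreated ones, and the change was 0.17 ± 0.08 (adjusted p = 0.21, 95% interval -0.002 to 0.35). The hydroxylase Egln1 had -0.07 ± 0.07 and Vhl 0.06 ± 0.07. Egln3, a hydroxylase that is itself a HIF1A target, was dim, with 3.83, 4.14 and 3.22 in vehicle-treated cells, and its change of 0.04 ± 0.13 had a 95% interval of -0.22 to 0.31.

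Among the 10 other HIF1A targets, 0 passed, 6 lay above and 4 below 0, and the median was 0.00. The collagen prolyl hydroxylases P4ha1 and P4ha2 had 0.00 ± 0.06 and 0.14 ± 0.09, the stress gene Ndrg1 -0.03 ± 0.06, and the oxidoreductase Ero1a 0.09 ± 0.07. The mitophagy receptors Bnip3 and Bnip3l had -0.09 ± 0.11 and 0.01 ± 0.11. The MYC antagonist Mxi1 had -0.05 ± 0.07, the histone demethylase Kdm3a 0.09 ± 0.08 and the respiratory chain factor Higd1a 0.26 ± 0.11 (adjusted p = 0.15). Ankrd37, a small ankyrin repeat protein used as a marker of hypoxia, had the lowest value among the genes that did not pass, -0.19 ± 0.09 (adjusted p = 0.18). In 25 of the 27 genes that did not pass, the 95% interval of the averaged change lay within 0.5 log2 units either way, and the outermost bounds were -0.37 for Ankrd37 and 0.51 for Pfkfb3.

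The probe sets of the called genes mostly moved together. In Pfkm 18 of 18 probe sets were lower with talc, from -1.20 to -0.04, and 6 of them passed on their own. All 14 probe sets of Slc2a1 and all 7 of Slc16a1 were higher, as were 21 of 22 in Hk2 and 15 of 18 in Eno2, where 8 passed. Genes that did not pass could be just as uniform at a smaller size: 19 of 20 probe sets of Pfkl were lower and 20 of 25 of Hif1a higher, including all 16 of Hif1a that were above the median level of all probe sets. When each probe set was tested on its own, 30 of the 469 (6.4%) passed, against 4.31% of all 269751. That background takes in dim probe sets and those without a gene symbol, and no share at the level of the listed genes was computed. The 30 include 8 of Eno2, 6 of Pfkm and 4 of Hk2, genes already called as a whole. They also include single probe sets of genes that did not pass as a whole, such as 1 of Higd1a and 1 of Egln3 upward and 1 of Mxi1 in each direction.

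**Figure D4:**
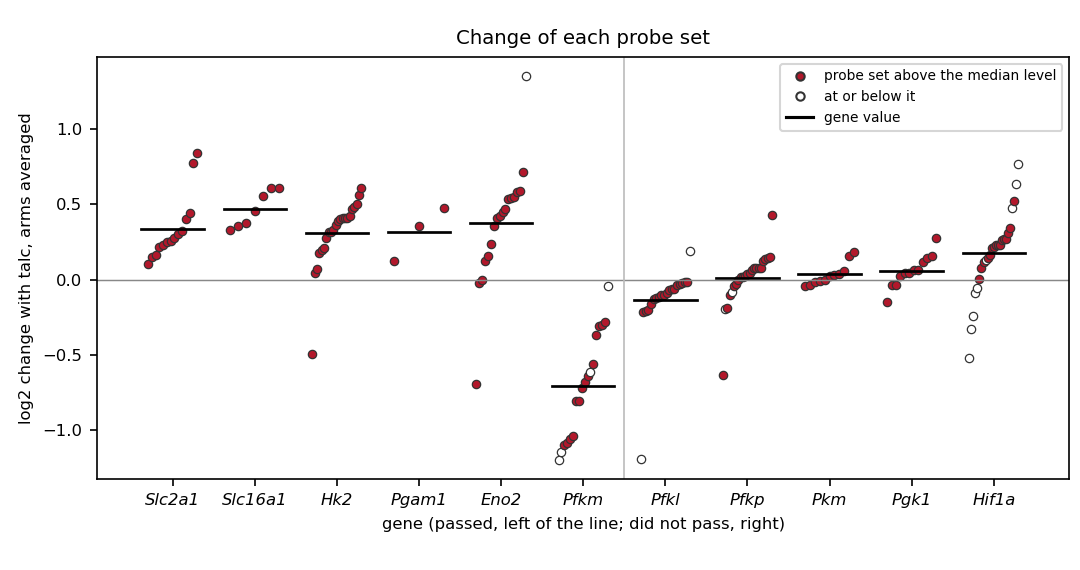
Log2 change with talc, arms averaged, of each probe set of 11 genes, sorted within a gene; filled points are above the median level of all probe sets, open points are not, and bars are the gene's value. Left of the line are the 6 genes that passed, among them Pfkm with 18 of 18 points below 0; to its right the points of Pkm, Pgk1 and Pfkp lie around 0.

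Neighbouring pathways were read from lists of other genes, with the arms averaged. Of 19 other genes of glycolysis 5 rose and 1 fell: the ADP-dependent glucokinase Adpgk (0.44 ± 0.09), the fructose bisphosphatase Tigar, a brake on glycolysis (0.51 ± 0.11), phosphoglucomutase Pgm1 (0.35 ± 0.07) and the hexose transporter Slc2a6 (0.28 ± 0.06) led those that rose. Of 13 genes of pyruvate entry into mitochondria 0 rose and 3 fell (23.1%). They were pyruvate carboxylase Pcx (-0.54 ± 0.10), the phosphatase subunit Pdpr (-0.38 ± 0.08) and the kinase Pdk2 (-0.48 ± 0.14). Of 9 pentose phosphate genes Pgd (0.25 ± 0.07) rose and Prps2 (-0.58 ± 0.11) fell (22.2%). Of 17 genes of the citric acid cycle 4 rose, Dlst (0.42 ± 0.06), Idh3a (0.33 ± 0.07) and Mdh2 (0.36 ± 0.08) among them, and Idh2 (-0.37 ± 0.07) fell (29.4%). These shares stand beside 14.8% of all genes and 27.7% of genes above the median level.

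Of 12 further genes of oxygen sensing and HIF partners, 2 passed (16.7%), near the 14.8% of all genes and below the 27.7% of genes above the median level. Epas1, which encodes the sister factor HIF2A, fell by 0.74 ± 0.07 on the log2 scale (adjusted p = 1.6e-06), by 0.84 ± 0.10 without and 0.63 ± 0.10 with estradiol. Arnt, the partner of both factors, rose by 0.29 ± 0.07 (adjusted p = 0.0061). Of 29 other hypoxia targets 5 rose and 1 fell, with Jmjd6 (0.54 ± 0.09), Mif (0.28 ± 0.06), glycogen synthase Gys1 (0.39 ± 0.09) and Upk1a (0.49 ± 0.12) having the smallest p. Their share called, 20.7%, and that of the other glycolysis genes, 31.6%, lay on either side of the 27.7% among genes above the median level, and the medians of these lists were -0.00 and 0.03.

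TiO2 gave no call among the listed genes. Against vehicle 0 of 33 passed and 0% of all genes did; with estradiol, against estradiol alone, 0 of 33 passed and 0.00433% of all genes (1 gene). With the arms averaged 0 of 33 passed and 0% of all genes did. At an unadjusted p under 0.05 in limma, the listed genes numbered 6, 0 and 2 in these comparisons, and the shares of all genes were 8.16%, 8.91% and 8.94%. The smallest adjusted p against vehicle was 0.51, that of Slc16a1.

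The values with TiO2 pointed up without estradiol and down with it. Against vehicle 26 of 33 genes (78.8%) were above 0, against 48% of all genes, with a median of 0.09 against -0.01. Against estradiol 7 of 33 (21.2%) were above 0, with 46.9% of all genes, and the median was -0.05. The median over genes above the median level was -0.06 there, and the upper quartiles of the TiO2 plus estradiol arrays were the lowest, 222.2 to 233.5 intensity units against 237.9 to 249.1 in the other 15 arrays. After quantile normalization the listed genes' median with estradiol was -0.02 and with array medians subtracted -0.02; without estradiol both gave 0.10. The interaction of TiO2 with estradiol passed for 0 of 33 genes and 0% of all genes, with 2 listed genes and 8.05% of all genes at an unadjusted p under 0.05. A high share above 0 was not particular to TiO2. Estradiol against the same vehicle arrays had 23 of 33 listed genes (69.7%) above 0, against 48.8% of all genes. Talc against vehicle had 60.6%, against 53.3% of all genes, and estradiol on top of talc 75.8%, against 49.6%.

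The comparisons of TiO2 and talc with vehicle share the vehicle arrays, so their values are given side by side only. Slc2a1 had 0.20 with TiO2 and 0.33 with talc, Pgam1 0.25 and 0.36, Eno2 0.31 and 0.38, Hk2 0.23 and 0.31, and Slc16a1 0.32 and 0.65. With estradiol the same genes had -0.04, 0.12, -0.03, -0.08 and 0.07 with TiO2. Pfkm had -0.01 ± 0.14 with TiO2 alone and -0.06 ± 0.14 with TiO2 plus estradiol, against -0.73 and -0.68 with talc.

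**Figure D5:**
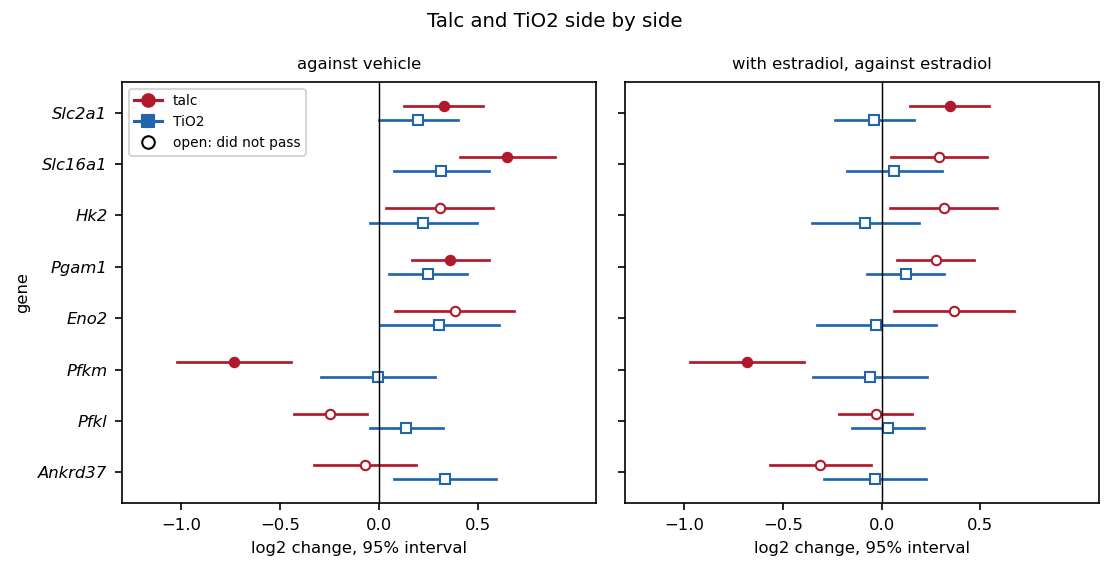
Log2 change and 95% interval of 8 genes with talc (red circles) and TiO2 (blue squares), against vehicle (left) and, in the presence of estradiol, against estradiol (right). Filled symbols passed. The controls are shared within a panel. Pfkm is lower with talc and near 0 with TiO2 in both panels. On the left the TiO2 intervals of Slc2a1, Slc16a1, Hk2, Pgam1, Eno2 and Ankrd37 overlap those of talc.

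Direct comparison of the particles tests that difference. Without estradiol 0 of the listed genes were higher with talc than with TiO2, where 4.61% of all genes were, and 3 were lower, where 5.35% were. Among genes above the median level 8.08% were higher and 10.2% lower, and the 3 calls made up 9.09% of the listed genes. Pfkm was lower by 0.73 ± 0.14 log2 units (adjusted p = 0.0023). Pfkl, at 9.35, 9.44 and 9.24 with TiO2, was lower with talc by 0.38 ± 0.09 (adjusted p = 0.0089), with no overlap. Of 16 alternative ways of processing, Pfkm passed in 15 (adjusted p up to 0.14) and Pfkl in 13 (adjusted p up to 0.17). Slc16a1 differed by 0.33 ± 0.11 (adjusted p = 0.076) and Slc2a1 by 0.13 ± 0.09 (adjusted p = 0.48).

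The third gene was Ankrd37. It read 9.69, 9.72 and 9.48 with vehicle, 9.68, 9.63 and 9.37 with talc and 9.64, 9.90 and 9.50 with talc plus estradiol. The values were 9.96, 10.06 and 9.94 with estradiol, 10.08, 9.82 and 10.00 with TiO2, and 10.01, 10.01 and 9.85 with TiO2 plus estradiol, higher than nearly all of the former. Talc against TiO2 gave -0.40 ± 0.12 (adjusted p = 0.045), a call that was lost without any 1 of talc replicates 1 to 3 and TiO2 replicates 1 and 3, with changes between -0.46 and -0.31. Over all 16 alternatives this call was kept in 9 (adjusted p up to 0.2). Against vehicle, estradiol had 0.36 ± 0.12 (adjusted p = 0.98) and TiO2 0.34 ± 0.12 (adjusted p = 0.51), and neither passed.

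With estradiol present, 1 listed gene was higher with talc than with TiO2, where 6.66% of all genes were, and 1 was lower, where 2.87% were. Among genes above the median level 12.9% were higher and 4.17% lower. Slc2a1 read 10.78, 10.82 and 10.69 with TiO2 plus estradiol and was higher with talc plus estradiol by 0.38 ± 0.09 (adjusted p = 0.016), with no overlap. This call was lost, at 0.35 to 0.37, without talc plus estradiol replicate 1 or 2 or TiO2 plus estradiol replicate 3. Over all 15 alternative ways of processing it passed in 9, with changes down to 0.24 and adjusted p up to 0.24. Pfkm was lower by 0.62 ± 0.14 (adjusted p = 0.008). The listed genes had a median of 0.14 in this comparison, against -0.01 over all genes and 0.08 over genes above the median level. The upper quartiles of the TiO2 plus estradiol arrays stand beside this value, and after quantile normalization the median was 0.10.

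Estradiol alone changed none of the listed genes past the threshold: 0 of 33 passed in limma against vehicle, as did 0% of all genes, with 2 listed genes and 4.87% of all genes at an unadjusted p under 0.05. These 2 were Ankrd37 and Bnip3l (0.35 ± 0.15). On top of talc, 0 of 33 passed and 0% of all genes did, with 1 listed gene, Vhl (0.23 ± 0.10, adjusted p = 0.73), and 6.58% of all genes at an unadjusted p under 0.05. On top of TiO2, 0 of 33 passed and 0.00866% of all genes (2 genes), with 0 listed genes and 13% of all genes at an unadjusted p under 0.05; Hk2 had the smallest adjusted p there, 0.39, at -0.27 ± 0.13. A p that misses the threshold does not show that estradiol left these genes alone: the bounds of the 95% intervals reached from -0.40 for Pdk3 to 0.68 for Bnip3l in estradiol against vehicle.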

How the data were processed

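Affymetrix arrays, 3 for each of 6 treatments and 18 in all, measured RNA of J774 cells. The authors deposited an intensity per probe set on a linear scale, from 1.458 to 17256; per the submitters' processing notes RMA was used, with no version or settings given, and log2 was taken here. Of the probe sets 233753 carried a single gene symbol and were averaged per gene, while 5106 with several symbols and 30892 with none were left out; 2247 older symbols were updated through the synonyms of the RefSeq gene records. A mean therefore hides exons that move apart. No gene was filtered out. All 18 arrays entered one linear model, with 1 coefficient per group, in limma 3.58.1 (R 4.3.3; files read by data.table, version 1.17.8), with 12 residual and 4.57 prior degrees of freedom and Benjamini-Hochberg adjustment over 23102 genes; genes pass at an adjusted p under 0.05, two-sided, and errors of changes are SE. The number of arrays limits the precision, with a median SE of 0.151 in comparisons of 3 arrays with 3. The script was tested on simulated data. The listed genes and all other lists were chosen with earlier results of these data known. Every listed gene is named, with values per array for those that passed a comparison. The other lists name at most the 4 genes with the smallest p among those that passed. Promoters of RefSeq, build GRCm38.p6, were searched for motifs. Alternatives changed the summary of probe sets, the normalization, the variance model, the arrays fitted and each array in turn. Some genes of the lists are not reported here.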

Additional observations from a re-analysis of the deposited data

Results flagged for a closer look

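For 7 listed genes every array of a particle moved one way without estradiol and the opposite way with it, relative to the control mean. This pattern was searched in the listed genes only, so no share of all genes stands beside the count, which is not a result about the list. The interaction was tested in limma and passed for none of the 7 genes. With talc, Pkm had an interaction of 0.13 ± 0.11 (adjusted p = 0.9), from -0.03 without to 0.10 with estradiol, and Bnip3l one of -0.48 ± 0.22 (adjusted p = 0.78), from 0.25 to -0.23. With TiO2 the interactions were -0.16 for P4ha1 (adjusted p = 0.78), -0.22 for Ndrg1 (adjusted p = 0.69), -0.16 for Mxi1 (adjusted p = 0.8), -0.24 for Kdm3a (adjusted p = 0.75) and -0.27 for Vhl (adjusted p = 0.65). The 5 genes with TiO2 share the TiO2 plus estradiol arrays, which were the dimmest in their upper quartiles.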

How the results depend on the processing

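No log2 change of a called gene reversed its sign under any alternative run. Counts and medians were compared by size only, and reversal of a median was not checked. The 4 listed genes called for talc against vehicle were 2 with the median of probe sets and 2 with only the compared arrays fitted. The 2 called for talc with estradiol were 1, 1 and, with an intensity trend and robust variance, 4. The 3 called for talc against TiO2 were 1 with only the compared arrays and 6 with the mean of probe sets above the median level, an alternative added after the data were seen. With estradiol these 2 were 6 with genes above the median level, 4 with trend and robust variance, 1 with only the compared arrays and 6 with bright probe sets. Leaving out single arrays gave 2 to 3 calls for talc, 1 to 2 for talc with estradiol, 5 to 6 with the arms averaged, 2 to 3 and 1 to 2 for talc against TiO2 without and with estradiol, and 0 to 0 in every TiO2, estradiol and interaction comparison. Fitting fewer arrays or genes changes the errors by construction; otherwise the cause was not tested. With the arms averaged, Pfkm, Slc16a1 and Eno2 passed in all 22 alternatives, Slc2a1 and Pgam1 in 21 and Hk2 in 16; Slc2a1 gave 0.27 (adjusted p = 0.066) with the median of probe sets. Medians of the listed genes moved by under 0.033, their SD between arrays, in 204 alternatives and further in 23. No paired analysis was possible because the labels give the groups no shared replicate numbers.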
